A study of Mus musculus with 12 samples.

Results

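The dystrophin glycoprotein complex was examined in the hearts of 12 mice through 8 of its genes, Dmd, Utrn, Dag1, Sgca, Sgcb, Sgcd, Dtna and Sspn, taken by symbol from a table of 53882 gene entries. All 8 symbols were found, and all 8 passed the filter on low values, a normalized count of at least 10 in at least 3 libraries, which 13392 genes passed. The series asks how the cardiac protein CIP, encoded by Mlip, acts in hearts under pressure overload. The mice were C57BL/6, 4 months old, and 1 library was made from total heart RNA of each animal 8 weeks after transverse aortic constriction (TAC), a narrowing of the aorta against which the left ventricle must pump, or after a sham operation. There were 4 groups of 3 mice. Ctrl-Sham and Ctrl-TAC were littermates that carried the floxed CIP transgene in the Rosa locus without Cre. CIP-OE-Sham and CIP-OE-TAC carried the same transgene and aMHC-MerCreMer, a Cre recombinase made in cardiomyocytes and switched on by tamoxifen. In the study, tamoxifen was given only after the TAC surgery, when cardiac remodeling was already established. The controls thus lack the Cre, and effects of CIP and of active Cre cannot be told apart. Hearts are named below as in the labels, by group and animal number, with KI for CIP-OE (Ctrl_TAC_3586). The labels give no litter or surgery date, so the p-values measure the spread between animals of a group.

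The complex spans the sarcolemma, the surface membrane of the muscle cell, and ties the actin cytoskeleton to the extracellular matrix, so that the membrane withstands the strain of contraction. Dystrophin (Dmd) lies under the membrane and binds actin at one end and beta-dystroglycan at the other. Utrophin (Utrn) is its autosomal relative. Dystroglycan (Dag1) is made as a single precursor and cut into an extracellular alpha part, which binds laminin through its sugar chains, and a beta part that crosses the membrane. The sarcoglycans (Sgca, Sgcb and Sgcd among them) form a subcomplex beside dystroglycan together with sarcospan (Sspn), and alpha-dystrobrevin (Dtna) binds dystrophin and the syntrophins on the cytoplasmic side. Loss of dystrophin or of a sarcoglycan causes muscular dystrophy and, for several of them, cardiomyopathy.

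The genes differ in place, length and base composition. On the GRCm38 assembly, with GENCODE M21 genes, Dmd covers 2257 kb of the plus strand of chrX:82948870-85206141, and its longest protein-coding transcript, Dmd-203, holds 14910 bases. Sgcd covers 1093 kb of the minus strand of chr11:46896253-47988969, with a longest protein-coding transcript, Sgcd-202, of 2450 bases, of which 576 are coding. All annotated exons of Sgcd merged hold 8257 bases, and the GC content below is that of Sgcd-202 alone. Sgca lies on the minus strand of the same chromosome, at chr11:94962791-94976327, and its transcript is 1724 bases long. Utrn lies at chr10:12382188-12869365 (minus strand), Dag1 at chr9:108204634-108263958 (minus), Sgcb at chr5:73632749-73647790 (minus) and Sspn at chr6:145931641-145965223 (plus). The GC content of these transcripts was lowest in Sgcd (38.7%), followed by Dmd (41.5%), Sgcb (43.9%), Sspn (45.8%), Dtna (46.1%), Utrn (47.9%), Dag1 (52.8%) and Sgca (56.7%). The 3′ untranslated region had 35.9% GC in Sgcd, 36.7% in Dmd and 52.9% in Sgca, and the coding part 46.0%, 43.1% and 58.0%. It takes 1713 of the 2450 bases of Sgcd, whereas 11034 of the 14910 bases of Dmd are coding, so that both parts carry the order.

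The first 150 coding bases are shown for the genes with the highest and the lowest transcript GC content, because the order of transcript GC content returns in the results. They are spliced, 5′ to 3′, with G and C in capitals, and were read from the GRCm38 assembly. The 150 bases of Sgca hold 82 G or C bases (54.7%) and those of Sgcd 74 (49.3%).
Sgca, coding start, chr11:94972499-94973438, minus strand, 2 exons: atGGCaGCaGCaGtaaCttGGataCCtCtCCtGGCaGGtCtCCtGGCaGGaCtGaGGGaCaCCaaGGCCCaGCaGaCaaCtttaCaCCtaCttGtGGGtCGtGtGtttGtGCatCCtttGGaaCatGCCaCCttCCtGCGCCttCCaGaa
Sgcd, coding start, chr11:47355224-47355373, minus strand, 1 exon: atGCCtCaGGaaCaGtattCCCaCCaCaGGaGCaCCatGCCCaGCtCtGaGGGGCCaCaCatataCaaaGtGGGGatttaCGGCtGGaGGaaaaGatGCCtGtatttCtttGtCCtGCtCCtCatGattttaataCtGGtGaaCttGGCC

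The promoters of Dmd, Sgcd and Sgca are shown because these were the genes with low, low and high values in Ctrl-TAC. Each window runs from 250 bases before to 50 bases after the transcription start in RefSeq (GRCm38.p6). Windows were read for 7 of the 8 genes, and Dtna was left out of this step. The capitals mark matches on either strand to the E-box CANNTG, to a CArG box, the letters bound by serum response factor, and to a MEF2 site.
Dmd, promoter, chrX:82948620-82948919, plus strand: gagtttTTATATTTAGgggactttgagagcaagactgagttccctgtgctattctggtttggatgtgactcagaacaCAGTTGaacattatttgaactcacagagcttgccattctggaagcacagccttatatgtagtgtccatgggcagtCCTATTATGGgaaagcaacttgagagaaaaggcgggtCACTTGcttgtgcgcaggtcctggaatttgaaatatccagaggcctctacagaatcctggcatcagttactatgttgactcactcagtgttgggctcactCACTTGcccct
Sgcd, promoter, chr11:47379276-47379575, minus strand: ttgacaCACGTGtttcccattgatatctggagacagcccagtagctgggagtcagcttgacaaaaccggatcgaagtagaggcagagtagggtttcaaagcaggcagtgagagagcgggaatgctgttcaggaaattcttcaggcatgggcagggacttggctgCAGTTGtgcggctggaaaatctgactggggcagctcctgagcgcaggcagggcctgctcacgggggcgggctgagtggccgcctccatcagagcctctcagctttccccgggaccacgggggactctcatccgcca
Sgca, promoter, chr11:94976278-94976577, minus strand: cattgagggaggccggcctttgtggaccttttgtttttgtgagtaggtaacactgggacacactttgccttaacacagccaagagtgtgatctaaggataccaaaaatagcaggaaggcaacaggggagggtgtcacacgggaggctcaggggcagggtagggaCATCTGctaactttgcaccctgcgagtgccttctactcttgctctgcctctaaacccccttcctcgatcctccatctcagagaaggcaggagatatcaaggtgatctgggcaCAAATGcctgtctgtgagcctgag

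The Dmd window shown held 3 E-boxes, 1 CArG box and 1 MEF2 site. No other window of the 7 genes, a second Dmd window among them, held a CArG box or a MEF2 site. Among 32851 promoter windows of the same length, 72.3% held an E-box, 1.6% a CArG box and 3.2% a MEF2 site. The Sgcd and Sgca windows held 2 E-boxes each. Sgcd and Sgca did not keep their transcript order in the promoters, with 59% GC in the Sgcd window and 52.7% in the Sgca window. Other windows were nearer to their transcripts, with 69.7% and 75.3% for Dag1. Dmd had 45.7% in the window shown and 62.7% in its second window. These matches describe letters and were not tested for binding.

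The libraries held 6990445 to 7704812 reads in genes, of which 33.9 to 54.0% were mitochondrial. Mlip, the overexpressed gene, averaged 1066 normalized counts in Ctrl-Sham, 883 in Ctrl-TAC, 4000 in CIP-OE-Sham (1911 to 5492) and 6688 in CIP-OE-TAC, so that the 6 CIP-OE hearts were above the 6 control hearts. Cardiomyocyte markers were high in every library, with 10 markers summing to 230601 to 335112 normalized counts, and the sums of 8 skeletal muscle markers did not exceed 31.2. The Ctrl-TAC libraries stood apart in base composition. The median of 3315 genes with the highest GC content (over 54.7%), minus that of 3315 with the lowest (under 45.3%), each gene relative to its mean over all libraries, was 0.57 to 0.90 on the log2 scale in the 3 Ctrl-TAC libraries and -0.54 to 0.02 in the other 9. Ctrl_TAC_3586 also had low values for long transcripts, with a median of -0.40 over 317 genes of more than 10 kb, against -0.08 and 0.01 in the other 2 Ctrl-TAC libraries.

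Per kb of its longest protein-coding transcript, Dag1 was the most abundant of the 8 genes in every group. In Ctrl-Sham it reached 505 ± 25.6 normalized counts per kb (SD, n = 3), above Sspn at 358 ± 30.5, Sgca at 292 ± 51.1 and Sgcb at 289 ± 81.3. The last 3 overlapped each neighbour in this order. Dtna (81.6 ± 7.99), Dmd (80.9 ± 5.02), Sgcd (62.4 ± 6.81) and Utrn (61.3 ± 4.04) followed at a distance, and Dmd and Sgcd did not overlap. The order within these low genes depends on the length taken. With all annotated exons merged, Dmd had 50.6, Utrn 44.4, Dtna 30.3 and Sgcd 18.5 per kb. In Ctrl-TAC, Sgca (387 ± 48.8) stood above Sspn (260 ± 38.7) and Sgcb (178 ± 20.2), without overlap between neighbours. Sgcd had the lowest mean there, 39.4 ± 15.3, and overlapped Utrn, as it did in Ctrl-Sham. In CIP-OE-Sham and CIP-OE-TAC the order was that of Ctrl-Sham.

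The response of the complex to pressure overload was given by Ctrl-TAC against Ctrl-Sham. Of the 8 genes, 4 fell with an adjusted p under 0.05, namely Sgcd, Sgcb, Dmd and Sspn, and none rose. Across all genes tested, 40.9% were called in this comparison, with 20.2% of all genes called lower and 20.7% called higher. The 4 calls in 8 thus stand beside 40.9% in either direction and beside 20.2% in the direction that all 4 took. The median log2 fold change of the 8 genes was -0.34, and that of all genes 0.00. In bulk hearts, fewer cells of a type cannot be told apart from less RNA per cell.

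Dmd, the cytoskeletal link, had 1187, 1142 and 1288 normalized counts in the Ctrl-Sham hearts and 546, 998 and 1032 in the Ctrl-TAC hearts. Each Ctrl-TAC value was under each Ctrl-Sham value, and Ctrl_TAC_3586 stood apart at the bottom. Dmd fell by 0.54 on the log2 scale (SE 0.18, adjusted p = 0.0253, limma). Without Ctrl_TAC_3586 the log2 fold change was -0.25 (adjusted p = 0.134), and the call was also lost without Ctrl_Sham_4010 (-0.55, adjusted p = 0.059) or Ctrl_Sham_4033 (-0.50, adjusted p = 0.0843).

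Sgcd, which had the fewest reads of the 8 genes, had 155, 135 and 169 normalized counts in Ctrl-Sham and 53.6, 113 and 123 in Ctrl-TAC. The groups did not overlap, and Ctrl_TAC_3586 was again the lowest. Sgcd fell by 0.74 on the log2 scale (SE 0.24, adjusted p = 0.0227). The value was -0.37 without Ctrl_TAC_3586 (adjusted p = 0.11), and the call was lost without Ctrl_Sham_4010 (-0.73, adjusted p = 0.0625) or Ctrl_Sham_4033 (-0.67, adjusted p = 0.082) as well.

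Sgcb, which forms the core of the subcomplex with Sgcd, had 946, 886 and 1447 normalized counts in Ctrl-Sham and 590, 686 and 741 in Ctrl-TAC. All 3 Ctrl-TAC values were lower, and here Ctrl_Sham_4033 was far above its group. Sgcb fell by 0.67 on the log2 scale (SE 0.18, adjusted p = 0.00606), and it stayed under an adjusted p of 0.05 when any one of the 12 libraries was left out, with log2 fold changes from -0.80 to -0.45. Sspn, the small membrane protein that joins the sarcoglycans, had 1518, 1554 and 1773 in Ctrl-Sham and 1000, 1163 and 1350 in Ctrl-TAC. The groups did not overlap. Sspn fell by 0.47 on the log2 scale (SE 0.14, adjusted p = 0.0107), and lost the call only without Ctrl_Sham_4033 (-0.40, adjusted p = 0.0569) among the libraries left out. A fold change of at least 1.5 was reached by Sgcd and Sgcb, against 30.5% of all genes with that fold and an adjusted p under 0.05. The calls of Dmd and Sgcd were also lost with limma without its trend and robust prior (adjusted p = 0.0684 and 0.0528) and in a fit of the 2 groups alone (0.0619 and 0.0531).

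Sgca, the sarcoglycan of striated muscle, went the other way, with 456, 606 and 451 normalized counts in Ctrl-Sham and 612, 626 and 765 in Ctrl-TAC. The lowest Ctrl-TAC heart was just above the highest Ctrl-Sham heart. The log2 fold change of 0.41 (SE 0.17) did not pass, at an adjusted p of 0.0538, but did under 6 alternatives, among them without Ctrl_Sham_4011 (0.55, adjusted p = 0.0217) and with quantile normalization (0.43, adjusted p = 0.04). The ratio of Sgca to Sgcb counts per kb was 2.18 ± 0.155 in Ctrl-TAC (SD, n = 3), above each value in Ctrl-Sham (at most 1.5002), CIP-OE-Sham (0.996 to 1.32) and CIP-OE-TAC (0.958 to 1.62). It sets a transcript of 56.7% GC over one of 43.9%, and was not corrected for the GC composition of the libraries. With the GC correction described below, Sgca had 449, 504 and 612 in Ctrl-TAC against 543, 674 and 547 in Ctrl-Sham. Corrected Sgcb had 732, 785 and 878 against 838, 825 and 1265.

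The other 3 genes did not pass. Utrn had 717, 814 and 745 normalized counts in Ctrl-Sham and 560, 703 and 715 in Ctrl-TAC, a log2 fold change of -0.21 (95% interval -0.46 to 0.05, adjusted p = 0.178) although the groups did not overlap. Dag1 had 2720, 3009 and 2852 in Ctrl-Sham and 2519, 3696 and 4128 in Ctrl-TAC, with Ctrl_TAC_3586 below and the other 2 above all Ctrl-Sham hearts. Its log2 fold change was 0.24 (adjusted p = 0.205), and without Ctrl_TAC_3586 it rose, by 0.45 (adjusted p = 0.00645). Dtna, at chr18:23415135-23659715 (plus strand), ranged from 464 to 565 in Ctrl-Sham and from 362 to 538 in Ctrl-TAC, with a log2 fold change of -0.15 (adjusted p = 0.436). In all, 5 genes were lower and 1 higher without overlap of the groups, where 50.8% of all genes tested did not overlap, 25.5% lower and 25.2% higher.

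**Figure D1:**
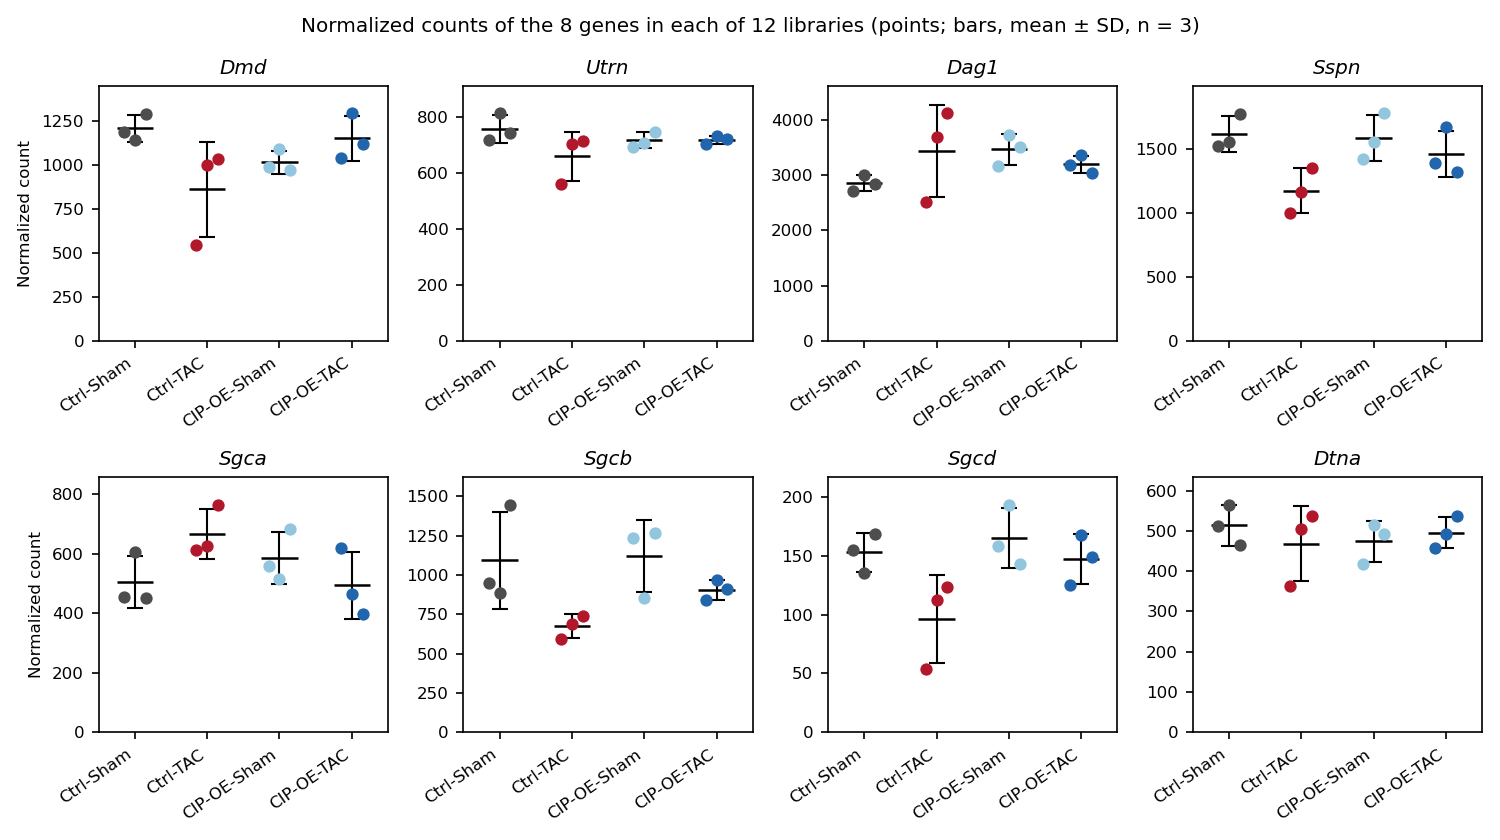
Normalized counts (vertical axis, from 0) of the 8 genes in the 12 hearts, by group (horizontal axis). Points are animals, and the bars are the mean ± SD of 3. Dmd, Sgcb, Sgcd, Sspn and Utrn are lower in all 3 Ctrl-TAC hearts than in any Ctrl-Sham heart, and Sgca is higher. Ctrl_TAC_3586 is the lowest Ctrl-TAC point of each of the 8 genes, among them Dmd (546), Sgcd (53.6) and Dag1 (2519).

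The order of the 8 fold changes was close to the order of transcript GC content. Over the 8 genes, the Spearman correlation of the log2 fold change with GC content was 0.95 in Ctrl-TAC against Ctrl-Sham, with Sgcd at one end and Sgca at the other. The points share the same 6 libraries and so do not count as independent. Across 13259 genes with a known transcript the correlation was 0.65, and the median log2 fold change was -0.51 in the genes with under 45.3% GC and 0.61 in those with over 54.7%. Set beside all tested genes within 2 percentage points of their own GC content, most of the 8 genes stood near the median. The median of the 1643 genes like Dmd was -0.52 and Dmd was at -0.54. The median was -0.64 for 833 genes like Sgcd, which was at -0.74, and 0.52 for 2309 genes like Sgca, which was at 0.41. Sgcb, at -0.67, lay by the lower quartile of its 2286 neighbours (-0.67, with a median of -0.41).

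A smooth curve of GC content was then removed from each library. None of the 8 genes passed in this comparison after that, with log2 fold changes of -0.26 for Sgcb, -0.21 for Sspn, -0.18 for Sgca, -0.10 for Sgcd and Utrn, 0.09 for Dtna, and -0.00 for Dmd and Dag1, and with no adjusted p under 0.296. Across all genes, 20.2% were still called. The corrected Dmd values were 724, 1204 and 1301 in Ctrl-TAC against 1016, 1046 and 1066 in Ctrl-Sham, so that Ctrl_TAC_3586 was under the sham hearts and the other 2 above them. The corrected Sgcd values, 75.6, 142 and 164 against 130, 125 and 133, were arranged alike. A change of the complex under TAC cannot be told apart here from the base composition by which all 3 Ctrl-TAC libraries differed, and the part of library making in that difference was not tested.

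**Figure D2:**
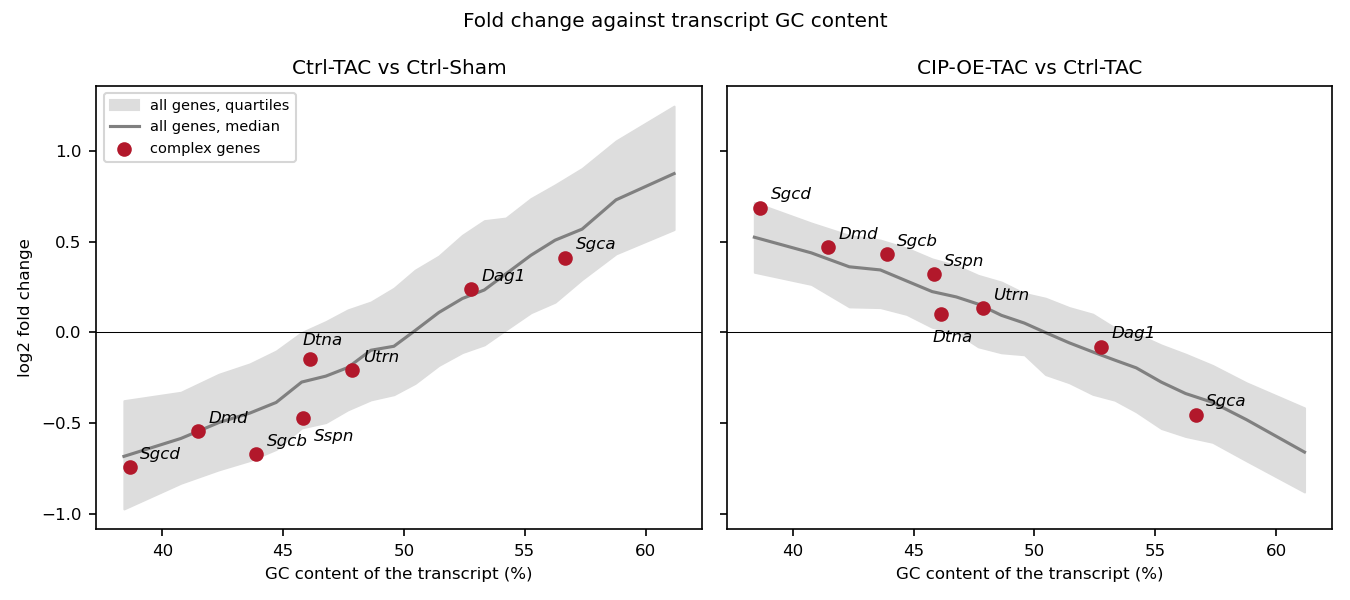
Log2 fold change (vertical axis) against the GC content of the transcript in percent (horizontal axis), in Ctrl-TAC against Ctrl-Sham (left) and CIP-OE-TAC against Ctrl-TAC (right). Red points are the 8 genes, the grey line and band the median and quartiles of 13259 genes in 20 bins of GC content. The 8 genes follow the grey band in both panels, from Sgcd (38.7% GC) to Sgca (56.7% GC). Sgcb on the left and Sgcd on the right lie near the edge of the band.

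Markers of other cell types moved with the same comparison. The sum of 8 fibroblast markers was 5911 to 6782 normalized counts in Ctrl-Sham and 8910 to 13285 in Ctrl-TAC, and that of 8 endothelial markers 6276 to 6511 and 7655 to 10639. Of the 8 in each list, 4 fibroblast and 5 endothelial markers were called higher and 0 lower, while Lum, Pdgfra and Dpt had lower means. The sum of 10 cardiomyocyte markers was 280499 to 307035 and 230601 to 274225, and the markers went both ways, with 2 called higher and 3 lower. The sums of 8 smooth muscle and pericyte markers were lower without overlap, at 11021 to 11940 and 6840 to 8394. Rgs5 (mean 6128 and 3749) and Abcc9 (3920 and 1916) made up most of them. Of the 7 tested, 3 were called lower and 2 higher, where 20.2% of all genes were called lower and 20.7% higher. The sums of 5 Schwann cell markers were also lower without overlap, with 110 to 176 and 27.6 to 57.3. The sums of 8 macrophage markers overlapped, at 1438 to 2210 and 1608 to 2685. Their part in the lower counts of Dmd, Sgcd, Sgcb and Sspn was not tested.

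Whether CIP overexpression altered the complex under pressure overload was given by CIP-OE-TAC against Ctrl-TAC. None of the 8 genes passed an adjusted p of 0.05 with limma, where 18.4% of all genes did, and edgeR and DESeq2 called 0 as well. At an unadjusted p of 0.05, 5 of the 8 were past the threshold, as were 33.2% of all genes. Dmd had 1039, 1291 and 1115 normalized counts in CIP-OE-TAC, each above the 3 Ctrl-TAC values (log2 fold change 0.47, SE 0.18, adjusted p = 0.0833). Sgcd had 126, 168 and 149, also without overlap (0.69, SE 0.24, adjusted p = 0.0596), and Sgcb had 840, 967 and 909 (0.43, SE 0.18, adjusted p = 0.0978). These were the 3 genes whose groups did not overlap, and 36.1% of all genes did not overlap in this comparison, 18.4% higher and 17.7% lower.

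Sspn had 1388, 1666 and 1321 in CIP-OE-TAC, and the lowest of these was under the highest Ctrl-TAC heart (0.32, adjusted p = 0.112). Sgca had 619, 464 and 397, a log2 fold change of -0.45 (SE 0.17, adjusted p = 0.0626). The intervals of Utrn (-0.12 to 0.39), Dtna (-0.21 to 0.41) and Dag1 (-0.39 to 0.23) include 0 and changes of up to about 0.4 in size. The comparison shares the Ctrl-TAC libraries with the one before, so a low Ctrl-TAC heart lowers the first fold change and raises the second. Ctrl_TAC_3586 did so. Without it the log2 fold change of Dmd was 0.17, that of Sgcd 0.31 and that of Sgcb 0.34.

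Some settings called members here. With totals that left out mitochondrial and the 20 most abundant genes, Dmd (0.52, adjusted p = 0.0409), Sgcd (0.73, adjusted p = 0.0347) and Sspn (0.36, adjusted p = 0.0485) passed, and quantile normalization called Dmd (0.48, adjusted p = 0.0481). Dmd and Sgcd passed without Ctrl_TAC_3800, Dmd, Sgcd and Sspn without Ctrl_TAC_4231, and Sgca fell, by 0.63, without KI_TAC_3577 (adjusted p = 0.0224). Against GC content the order was turned around, with a Spearman correlation of -0.98 over the 8 genes and -0.67 across all genes. After the GC correction the log2 fold changes lay between -0.09 (Dtna) and 0.20 (Sgcd), the lowest adjusted p was 0.701, and 2.94% of all genes were called.

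**Figure D3:**
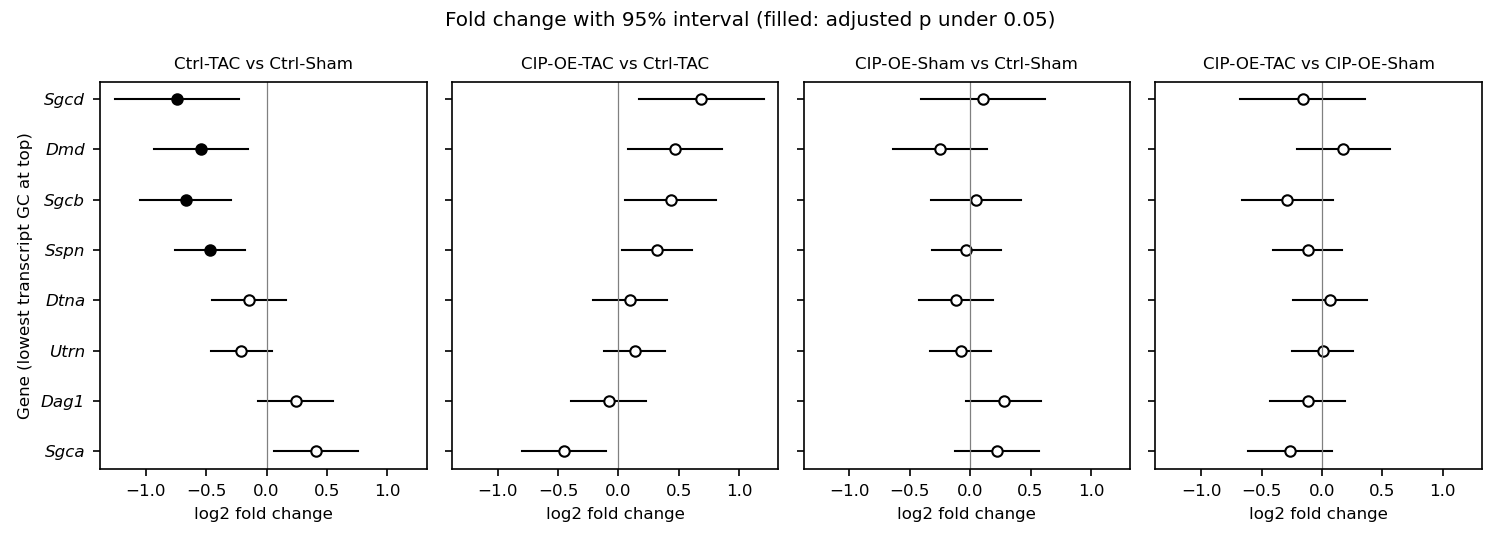
Log2 fold changes (horizontal axis) of the 8 genes, ordered by GC content with the lowest at the top, in 4 comparisons. Lines are 95% intervals of the limma fit and filled points passed an adjusted p of 0.05. The 4 filled points are Sgcd, Dmd, Sgcb and Sspn in Ctrl-TAC against Ctrl-Sham.

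In sham-operated hearts, CIP-OE against Ctrl gave 0 called genes of the 8 with limma, edgeR and DESeq2, where limma called 3 genes in all (0.0224%), and no member had an unadjusted p under 0.05, which 11.2% of all genes had. Dmd was lower without overlap, with 985, 1088 and 968 normalized counts in CIP-OE-Sham (log2 fold change -0.25, 95% interval -0.64 to 0.14). Dag1 was higher without overlap, with 3178, 3729 and 3515 (0.28, interval -0.03 to 0.59). The other 6 genes overlapped, and 17.8% of all genes did not, 8.82% higher and 8.95% lower. The sham groups also differed somewhat in base composition. The high minus low GC median was -0.54 to -0.25 in Ctrl-Sham and -0.28 to 0.02 in CIP-OE-Sham. Across genes, fold change and GC content had a correlation of 0.32. With the 2 GC corrections, Dmd was between -0.16 and -0.11 and Dag1 between 0.18 and 0.23.

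Within CIP-OE hearts, TAC against sham left all 8 genes overlapping, while 18.8% of all genes did not overlap. None was called by limma, edgeR or DESeq2, none had an unadjusted p under 0.05 (12.6% of all genes had), and 1.26% of all genes were called by limma. The log2 fold changes lay between -0.29 (Sgcb) and 0.18 (Dmd), and the interval of Dmd, -0.21 to 0.56, excludes a fall of the size seen in the controls (0.54). The interval of Sgcd, -0.68 to 0.35, and that of Sgcb, -0.66 to 0.09, leave room for a fall of almost that size in each. The libraries of these 2 groups differed little in GC composition, with a correlation of fold change and GC content across genes of 0.08.

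The difference between the 2 responses to TAC was tested as an interaction. No member passed with limma, edgeR or DESeq2, and 11.6% of all genes did with limma. At an unadjusted p of 0.05, which 29.3% of all genes passed, there were 2, namely Dmd (0.72, SE 0.26, adjusted p = 0.0782) and Sgca (-0.68, SE 0.23, adjusted p = 0.0657). Dmd passed with the totals described above (0.78, adjusted p = 0.041), with quantile normalization (0.73, adjusted p = 0.0498) and without Ctrl_TAC_3800 or Ctrl_TAC_4231 (0.86 and 0.88). Sgca passed without Ctrl_Sham_4011 (-0.81) or KI_TAC_3577 (-0.85), and Dag1 without Ctrl_TAC_3586 (-0.57, adjusted p = 0.0327). After the GC correction Dmd was at 0.18 and Sgca at -0.16, with adjusted p-values of 0.795 and 0.81, and 0.754% of all genes were called. A different response of these genes in CIP-OE hearts was thus not shown.

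**Figure D4:**
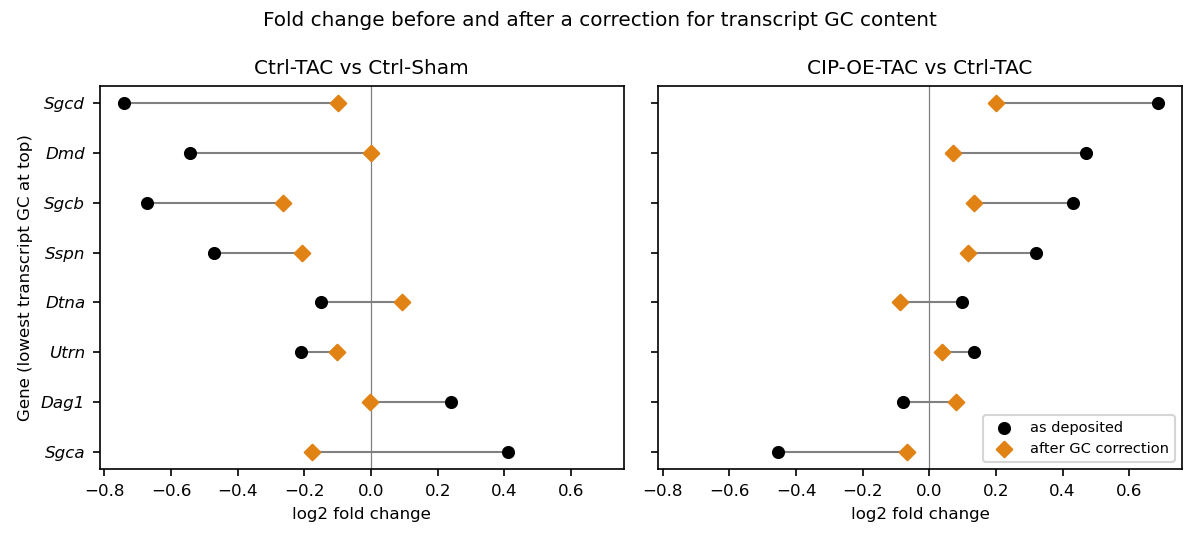
Log2 fold changes (horizontal axis) of the 8 genes as deposited (black points) and after removal of the GC trend of each library (orange diamonds). In Ctrl-TAC against Ctrl-Sham (left) Dmd moved from -0.54 to -0.00 and Sgca from 0.41 to -0.18, and in CIP-OE-TAC against Ctrl-TAC (right) Sgcd moved from 0.69 to 0.20.

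The partners of the complex were read from 5 lists, in Ctrl-TAC against Ctrl-Sham unless stated. Their counts stand beside the shares of all genes. In that comparison 20.7% of all genes were called higher and 20.2% lower, and after the GC correction 20.2% were called in either direction. In CIP-OE-TAC against Ctrl-TAC 18.4% were called, and 2.94% after the correction. Within CIP-OE hearts 1.26% were called under TAC. Of 9 tested subunits and cytoplasmic partners outside the 8 genes, 1 rose and 1 fell. Sntb2, a syntrophin, fell by 0.43 on the log2 scale (adjusted p = 0.024), and Mast2 was at 0.29 (adjusted p = 0.095). After the GC correction 0 of the 9 passed. In CIP-OE-TAC against Ctrl-TAC, Cav3, the caveolin of muscle, was at -0.40 (adjusted p = 0.071).

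Among the syntrophin-bound channels and enzymes, 5 of 8 fell and none rose. Kcnj2, the inward rectifier potassium channel, fell from 537 ± 60.0 to 183 ± 27.0 normalized counts (SD, n = 3; log2 fold change -1.55, adjusted p = 1.1e-06), with no overlap. Aqp4, a water channel, fell from 63.6 ± 26.1 to 3.49 ± 1.03 (-3.80, adjusted p = 5.3e-06). Unlike the 8 genes, Kcnj2 and Aqp4 still fell after the GC correction (-0.99 and -3.25, adjusted p = 0.00028 and 0.0001), and 5 of the 8 were lower. In CIP-OE-TAC, Kcnj2 had 313 ± 51.6, above Ctrl-TAC (0.77, adjusted p = 0.0038), Gucy1a1, a subunit of soluble guanylate cyclase, rose by 0.58 (adjusted p = 0.031), and Aqp4 had 4.79 ± 4.78 (0.09, adjusted p = 0.91). After the correction Kcnj2 was at 0.36 (adjusted p = 0.267). Within CIP-OE hearts 3 of the 8 fell under TAC and none rose. Kcnj2 fell there from 636 ± 123 (-1.01, adjusted p = 0.0049), Aqp4 from 37.3 ± 8.30 (-3.00, adjusted p = 0.0046) and Abca1, a cholesterol transporter, from 426 ± 70.8 to 271 ± 19.9 (-0.64, adjusted p = 0.023).

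Of 11 tested extracellular ligands of dystroglycan, 5 rose and 2 fell. Bgn, the proteoglycan biglycan, rose from 1691 ± 227 to 7454 ± 1492 (2.13, adjusted p = 2.6e-06), and Hspg2, perlecan, from 1985 ± 239 to 4533 ± 155 (1.2, adjusted p = 1.6e-06). Both are also made by cells other than cardiomyocytes, and the fibroblast and endothelial marker sums given above were higher in the same libraries. The part of such cells in the higher counts of Bgn and Hspg2 was not tested. After the GC correction, 1 ligand was higher and 1 lower, and Bgn still rose, by 1.91. In CIP-OE-TAC against Ctrl-TAC, Bgn fell by 0.80 (adjusted p = 0.015) and Hspg2 by 0.89 (adjusted p = 0.00037), and neither passed after the correction.

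Of 18 tested genes that make the sugar chains of alpha-dystroglycan, 6 rose and 2 fell. Dpm3, a subunit of dolichol-phosphate-mannose synthase, rose from 16.7 ± 0.370 to 70.4 ± 29.3 (1.94, adjusted p = 0.00013), and Gmppb, a GDP-mannose pyrophosphorylase, from 60.4 ± 11.0 to 149 ± 37.7 (1.28, adjusted p = 0.00013). After the correction 3 were higher and 1 lower among the 17 with a known transcript. In CIP-OE-TAC against Ctrl-TAC, 1 of 18 rose and 4 fell, Dpm3 the most (-1.71, adjusted p = 0.0022). Dpm3 remained lower after the correction (-1.48, adjusted p = 0.0145).

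Of 23 tested genes of the costamere, which joins the sarcolemma to the Z-disc, and of membrane repair, 8 rose and 3 fell. Des, desmin, rose from 7789 ± 741 to 19562 ± 1527 (1.33, adjusted p = 1.1e-06), and Anxa2, an annexin of membrane repair, by 1.26 (adjusted p = 2.4e-06). Sptbn1, a spectrin, was at 0.06 (adjusted p = 0.70). After the correction, 3 were higher, among them Des (0.76) and Anxa2 (0.99), and 4 lower. In CIP-OE-TAC against Ctrl-TAC, 6 fell and none rose, among them Trim72 (-0.80) and Des (-0.71), with 1 of 23 after the correction. In CIP-OE-Sham against Ctrl-Sham, no gene of these 5 lists passed.

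Last, each gene was set against the 8407 other genes with a mean of at least 50 normalized counts, by the Pearson correlation of log2 values over the 12 libraries. Zfp449 was among the genes most like Sgcd (r = 0.96), and Dmd was most like Pja2 (0.95) and Pak2 (0.95). Sspn was most like Herc3 (0.97) and Pcyt1a (0.95), and Sgcb like Cap2 (0.94) and Eif4e (0.92). For Utrn the leading genes were Slc8a1, the sodium-calcium exchanger, and Snx27 (0.92 each), for Dag1 Zdhhc5 (0.94) and Tns1 (0.89), for Sgca Prr33 and Fastk (0.89 each) and for Dtna Dnajc5 (0.87) and Zhx3 (0.86). Within the complex, Dmd was most like Sgcd (0.90) and Utrn (0.86), and Sgca was negatively related to Dmd (-0.44). The libraries fall into groups that differ in GC content, which all points share, and the transcripts of Prr33 and Fastk (55.3% and 56.8% GC) resemble Sgca in this as that of Zfp449 (41.6%) resembles Sgcd. Not all pairs were alike in it. Slc8a1 had 40.2% GC beside 47.9% in Utrn, and Cap2 had 47.7% beside 43.9% in Sgcb.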

How the data were processed

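Total RNA of mouse hearts was sequenced at BGI. Read alignment was done with STAR against mm10 and counting with featureCounts according to the study's methods, whereas other tools stand in the submitters' processing notes, StringTie 2.1.4 and HISAT2 2.0.4 on the GRCm38 assembly, with DESeq2 1.4.5. The sources differ, and the strand setting and annotation release are not given in the sources used here. The deposited values are a signal, gene read counts scaled by the authors with 1 size factor for each library. Reads were recovered from them, 100% of values being whole multiples within a tolerance of 0.001. Of 54515 rows, 633 exact duplicates were removed, 75 repeated symbols were kept, and 53043 symbols matched GENCODE M21. No per-sample column was left unmapped. Sspn shares 69 exon bases with its antisense gene Sspnos, and Dtna 90 with Gm47898.

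Values were tested as log2(value + 1) with limma 3.58.1 in R 4.3.3 (group means of all 12 libraries in a single fit, robust and trended empirical Bayes), with Benjamini-Hochberg adjustment over 13392 genes, and fold changes are on that scale. They were called at an adjusted p of 0.05. Recovered reads were also tested with edgeR 4.0.16 and DESeq2 1.42.0. GC content and length were those of the longest protein-coding transcript, and the GC trend of each library was a natural spline with 5 degrees of freedom. The other alternatives were pseudocounts of 0.1 and 5, no filter or one of 50, other scalings, quantile normalization, a correction for GC content and length, fits of only the groups compared, limma without trend or robust prior, and each library left out. The fit was tested on simulated data. No 2 libraries of a group agreed within sampling noise (chi-square per degree of freedom of at least 3.77). The genes and lists were chosen with earlier results of these data known. Named are the 8 genes, and in each list the 2 most abundant genes and those of smallest p. Gene levels were set beside each other only per kb. The depth of 6990445 to 7704812 reads per library limits the precision of genes with few reads such as Dpm3 and Aqp4. Some genes that the rule would name are not reported here.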

Additional observations from a re-analysis of the deposited data

How the results depend on the processing

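No paired analysis was possible because the groups share no animal numbers. In Ctrl-TAC against Ctrl-Sham, 4 of the 8 genes were called, but 0 after correction for GC content, 0 for GC content and length, 2 with limma without trend or robust prior and 2 with a fold of at least 1.5, and from 1 (without Ctrl_Sham_4033) to 5 with a library left out. Under CIP-OE-TAC against Ctrl-TAC the count of 0 became 3 with totals that leave out mitochondrial and 20 abundant genes, 1 with quantile normalization, and 0 to 3 with a library left out. The interaction gave 1 with those totals, 1 with quantile normalization, and 0 to 1 with a library left out. Both other comparisons stayed at 0 under every alternative run. The GC correction turned the sign of the TAC response of control hearts for Sgca (-0.18, and -0.19 with length), Dtna (0.092, and 0.14 with length) and Dag1 (-0.0018), and with length for Dmd (0.057). For CIP-OE-TAC against Ctrl-TAC it turned Dtna (-0.088, and -0.16 with length) and Dag1 (0.081), and with length Dmd (-0.0085) and Utrn (-0.065). It turned Sspn between the sham groups (0.043, and 0.016 with length), Utrn within CIP-OE hearts (-0.014), and in the interaction Sgcb (-0.028, and -0.013 with length), Sgcd (-0.039 and -0.063) and Dtna (-0.041 and -0.066). This follows from the construction of the correction, which takes the trend with GC content out of each library. With a library left out, signs turned for Dtna in Ctrl-TAC against Ctrl-Sham (-0.259 to 0.0261), for Dag1 (-0.290 to 0.0664) and Dtna (-0.0759 to 0.209) between the TAC groups, for Sgcb (-0.0864 to 0.267), Sgcd (-0.0132 to 0.202) and Sspn (-0.117 to 0.0453) between the sham groups, and for Utrn (-0.0186 to 0.0354) and Dtna (-0.0242 to 0.126) within CIP-OE hearts, and the cause was not tested. Scalings moved the median of all genes by less than 0.1 on the log2 scale.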
